A study of Mus musculus with 12 samples.

Results

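The genes described here are 35 stellate cell and extracellular matrix genes of the mouse liver, chosen by name from a list of collagen, matrix and stellate cell genes and matched to the Ensembl identifiers of the count table. All 35 had counts, and all 35 were among the 13861 genes, of 54838 identifiers, that entered the tests. By role they are 23 matrix genes (5 fibrillar collagens, 6 network and filament collagens, 7 proteoglycans, glycoproteins and elastic fibre genes, and 5 genes of matrix cross-linking and turnover), 9 markers of stellate cell and pericyte identity, 2 contractile genes and 1 ligand. Livers came from C57BL/6J mice housed free of specific pathogens, with food and water without restriction, and the study crossed oxygen with dexamethasone (DEX), a synthetic glucocorticoid. Hypoxia_DEX mice breathed 7% O2 for 24 h and were injected into the peritoneum with DEX at 10 mg/kg, and Hypoxia_PBS mice breathed 7% O2 for the same time and received phosphate-buffered saline (PBS). Normoxia_DEX and Normoxia_PBS mice stayed at 21% O2 and received the same injections, hypoxic mice were returned to 7% O2, and all livers were sampled 2 h after injection. Each group held 3 libraries, which the design text calls biological replicates. Whole liver mRNA was sequenced, so in these bulk samples fewer cells of a type and less RNA per cell cannot be told apart.

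Hepatic stellate cells lie between the sinusoidal endothelium and the hepatocytes, and in the healthy liver they hold most of the body's vitamin A as retinyl esters. On activation they lose these stores, become contractile and deposit fibrillar collagens, with TGF-beta 1 and platelet-derived growth factors among the signals that drive the change. Collagen chains are made as procollagens, folded and hydroxylated in the endoplasmic reticulum, secreted, trimmed, cross-linked by lysyl oxidases, and broken down by matrix metalloproteinases that tissue inhibitors of metalloproteinases (TIMPs) hold in check.

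Total counts per library ranged from 12464687 to 24715995. The hepatocyte markers summed to between 138000 and 144000 CPM (read counts scaled to library size) in Hypoxia_DEX, 131000 and 151000 in Hypoxia_PBS, 149000 and 163000 in Normoxia_DEX, and 125000 and 134000 in Normoxia_PBS. Hypoxia_DEX-1 and Hypoxia_DEX-3 differed by a chi-square of 1.79 per gene, where 1 is sampling noise, against 10.5 to 38.4 for the other replicate pairs. Hypoxia_PBS-1 lay 38.4 and 21.4 per gene from its replicates, and Hypoxia_DEX-2 lay 14.6 and 15.4 from its own. The fits were therefore repeated with the near-identical pair added together, and without Hypoxia_DEX-2 and Hypoxia_PBS-1, and a member's call that either setting changed is named beside it. The distances of Hypoxia_DEX-2 are within the range of the other pairs. Without it the Hypoxia_DEX group is the near-identical pair alone, with little spread. Adjusted p from that setting may therefore be too small.

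Levels between genes were compared per kb of annotated exon. In Normoxia_PBS livers Ecm1, which encodes a secreted matrix glycoprotein, stood highest of the 35, at 45.5 ± 5.23 CPM per kb (SD, n = 3). It was followed by the small leucine-rich proteoglycan decorin (Dcn) at 27.6 ± 5.07 CPM per kb, apart from Ecm1 by more than their spread. Colec11, which encodes a collectin, came next at 19.1 ± 1.91 CPM per kb, and biglycan (Bgn) at 16.9 ± 2.2 and Sparc at 15.1 ± 0.245 CPM per kb followed. The gap between Colec11 and Bgn was within their spread, and so was that between Bgn and Sparc. The fibrillar collagens were much lower, led by Col3a1 at 3.14 ± 0.277 CPM per kb, and Lox, at 0.0925 ± 0.0524 CPM per kb, was the lowest member. Ecm1 and Dcn were also the highest in the other 3 groups. Several members are neighbours in the genome (GENCODE M21 on mm10): Col3a1 and Col5a2 lie 24614 bases apart on chromosome 1, Dcn and Lum 46984 bases apart on chromosome 10, and Col4a1 and Col4a2 start head to head on chromosome 8 with 22 shared bases.

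Promoter sequence is shown for 4 members: Col3a1 and Col6a3, the collagens with the largest called falls of their classes in hypoxia, Timp3, the member called higher in all 4 comparisons, and Tgfb1, the member called lower with DEX at both oxygen levels. RefSeq (GRCm38.p6) listed a promoter for 25 of the 35 members. Each line runs 5′ to 3′ on the gene's strand. It covers the 250 bases before the RefSeq start, except that the Timp3 line stops 40 bases short of it, where GENCODE transcripts begin. Capitals mark matches on either strand to the TATA box, written TATAAA, the CAAT box, written CCAAT, the GC box, written GGGCGG, the cores of hypoxia response elements, written ACGTG and also GCGTG, the half-site of the glucocorticoid receptor, written AGAACA, and the SMAD element, written CAGACA.
Col3a1 (chr1:45311288-45311537, plus strand): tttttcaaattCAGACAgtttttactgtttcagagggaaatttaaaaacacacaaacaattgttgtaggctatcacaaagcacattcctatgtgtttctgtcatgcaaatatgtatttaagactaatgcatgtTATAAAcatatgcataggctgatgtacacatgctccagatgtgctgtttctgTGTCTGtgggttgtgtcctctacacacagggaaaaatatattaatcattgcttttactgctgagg
Col6a3 (chr1:90843972-90844221, minus strand): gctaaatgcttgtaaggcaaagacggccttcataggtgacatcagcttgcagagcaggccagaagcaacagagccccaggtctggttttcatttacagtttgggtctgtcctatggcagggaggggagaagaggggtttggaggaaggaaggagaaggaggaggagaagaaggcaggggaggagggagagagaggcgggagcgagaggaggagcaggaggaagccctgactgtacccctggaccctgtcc
Timp3 (chr10:86300162-86300371, plus strand): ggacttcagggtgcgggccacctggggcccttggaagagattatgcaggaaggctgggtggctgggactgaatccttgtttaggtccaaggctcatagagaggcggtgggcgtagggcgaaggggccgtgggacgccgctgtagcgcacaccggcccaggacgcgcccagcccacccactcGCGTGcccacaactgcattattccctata
Tgfb1 (chr7:25686752-25687001, plus strand): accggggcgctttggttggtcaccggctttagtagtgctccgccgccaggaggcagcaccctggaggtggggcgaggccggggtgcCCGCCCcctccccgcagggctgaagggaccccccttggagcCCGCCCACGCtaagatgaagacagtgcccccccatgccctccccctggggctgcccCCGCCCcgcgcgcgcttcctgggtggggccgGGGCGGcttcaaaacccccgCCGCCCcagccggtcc
In the Col3a1 window CAGACA matched at -239, and as TGTCTG at -65, and TATAAA matched at -117 from the start. The Col6a3 window held none of the 7 motifs. The Timp3 line held GCGTG once, at -69. In the Tgfb1 window GGGCGG matched 5 times, 4 of them as CCGCCC, and GCGTG matched once, as CACGC at -118, where it overlaps a CCGCCC. Of the 25 member promoters, 60% held GGGCGG within 250 bases before the start, 44% held GCGTG and 28% held CAGACA, against 32.9%, 28.2% and 17.1% of all 27025 promoters. TATAAA was in 8% of them, CCAAT in 28%, ACGTG in 20% and AGAACA in 16%, against 13%, 34.5%, 16.6% and 16.2% of all promoters. A match is a stretch of letters and not a shown binding site.

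Hypoxia was compared with normoxia in PBS mice and, in separate libraries, in DEX mice. Of the 11 collagens 8 were called lower in hypoxic livers in both comparisons, with lumican, osteonectin (Sparc) and gelatinase A (Mmp2), while Timp3 was called higher in both. A gene was called when its Benjamini-Hochberg adjusted p from edgeR's quasi-likelihood test, over all 13861 genes, was under 0.05. In PBS mice 16 of the 35 members were called lower, against 16.8% of all genes tested, and 2 were called higher, Timp3 and Rgs5, against 18.9%. In DEX mice 23 were called lower, against 22.2% of all genes, and Timp3 alone was called higher, against 20.7%. Taking either direction, 35.7% and 42.9% of all genes were called in these comparisons. The median log2 fold change of the members was -0.46 in PBS mice and -0.67 in DEX mice, against 0.01 and -0.02 over all genes. In both comparisons 15 members were called lower, against 12.7% of all genes, and 1 was called higher, against 13.9%. Of the 35 members, 33 had the same sign in both comparisons, and for 24 the change was larger in DEX mice. Neither count was taken over all genes, of which more were also called in DEX mice than in PBS mice.

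**Figure D1:**
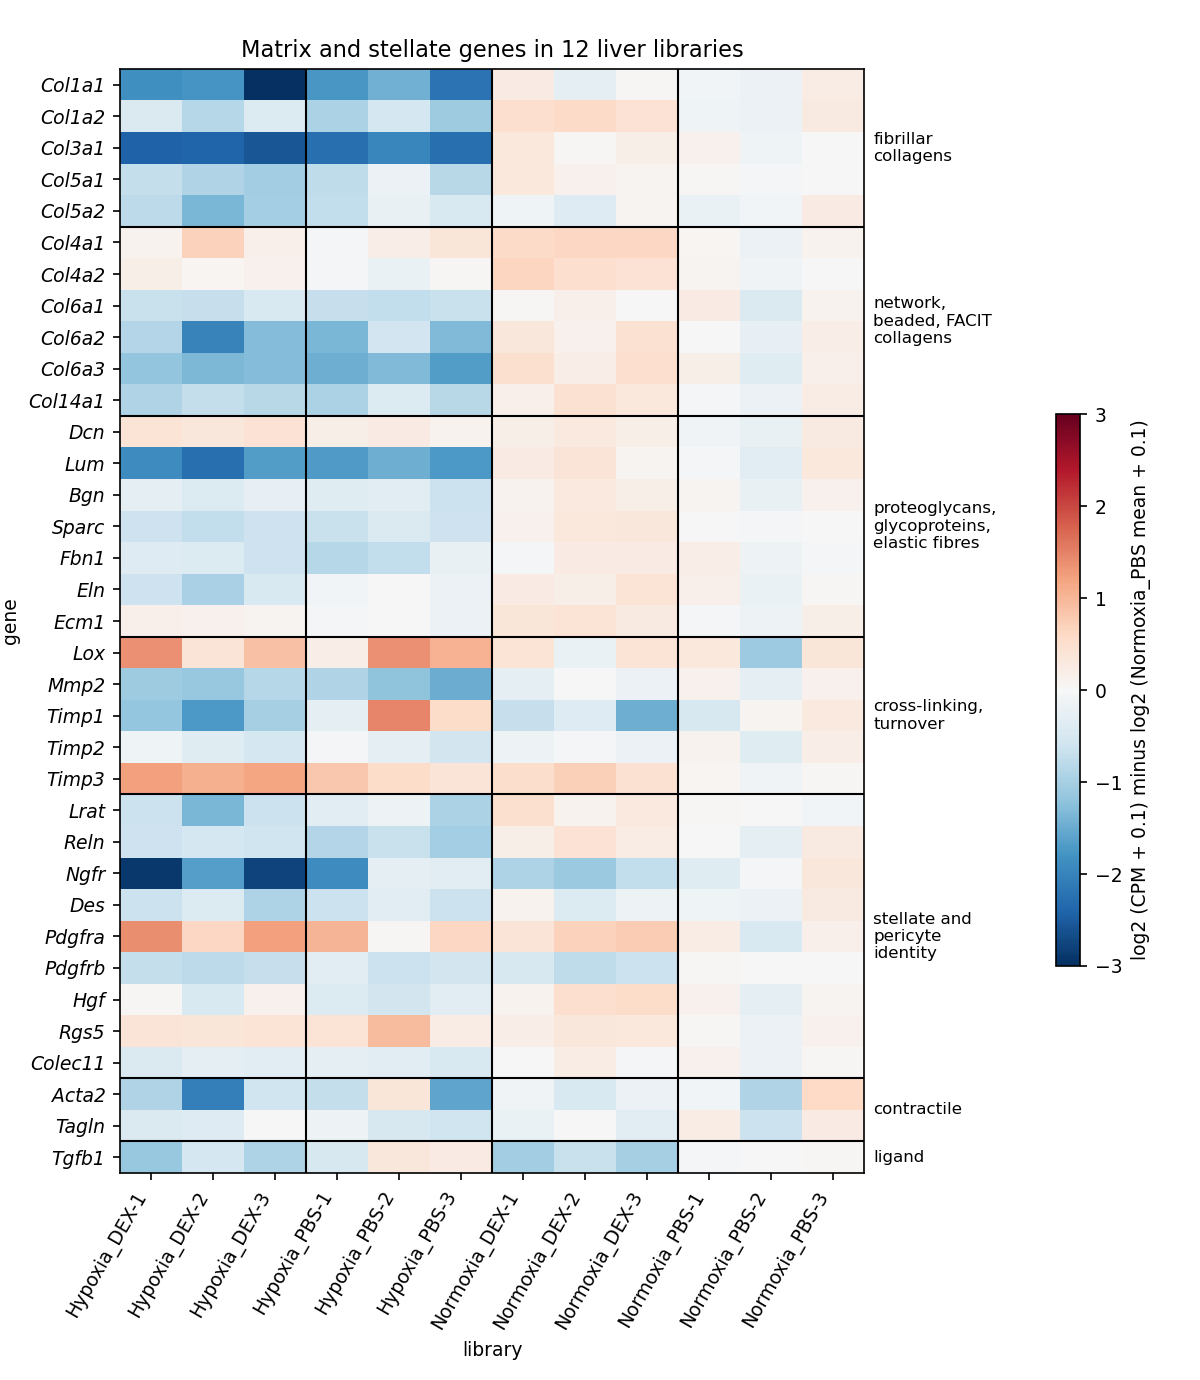
Log2 of CPM (with a pseudocount of 0.1) relative to the Normoxia_PBS mean, for the 35 members (rows, by role group) in each of the 12 libraries (columns, hypoxia left of normoxia). Most collagen rows are below the Normoxia_PBS mean in all 6 hypoxia libraries, and Timp3 is above it in the same 6.

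**Figure D2:**
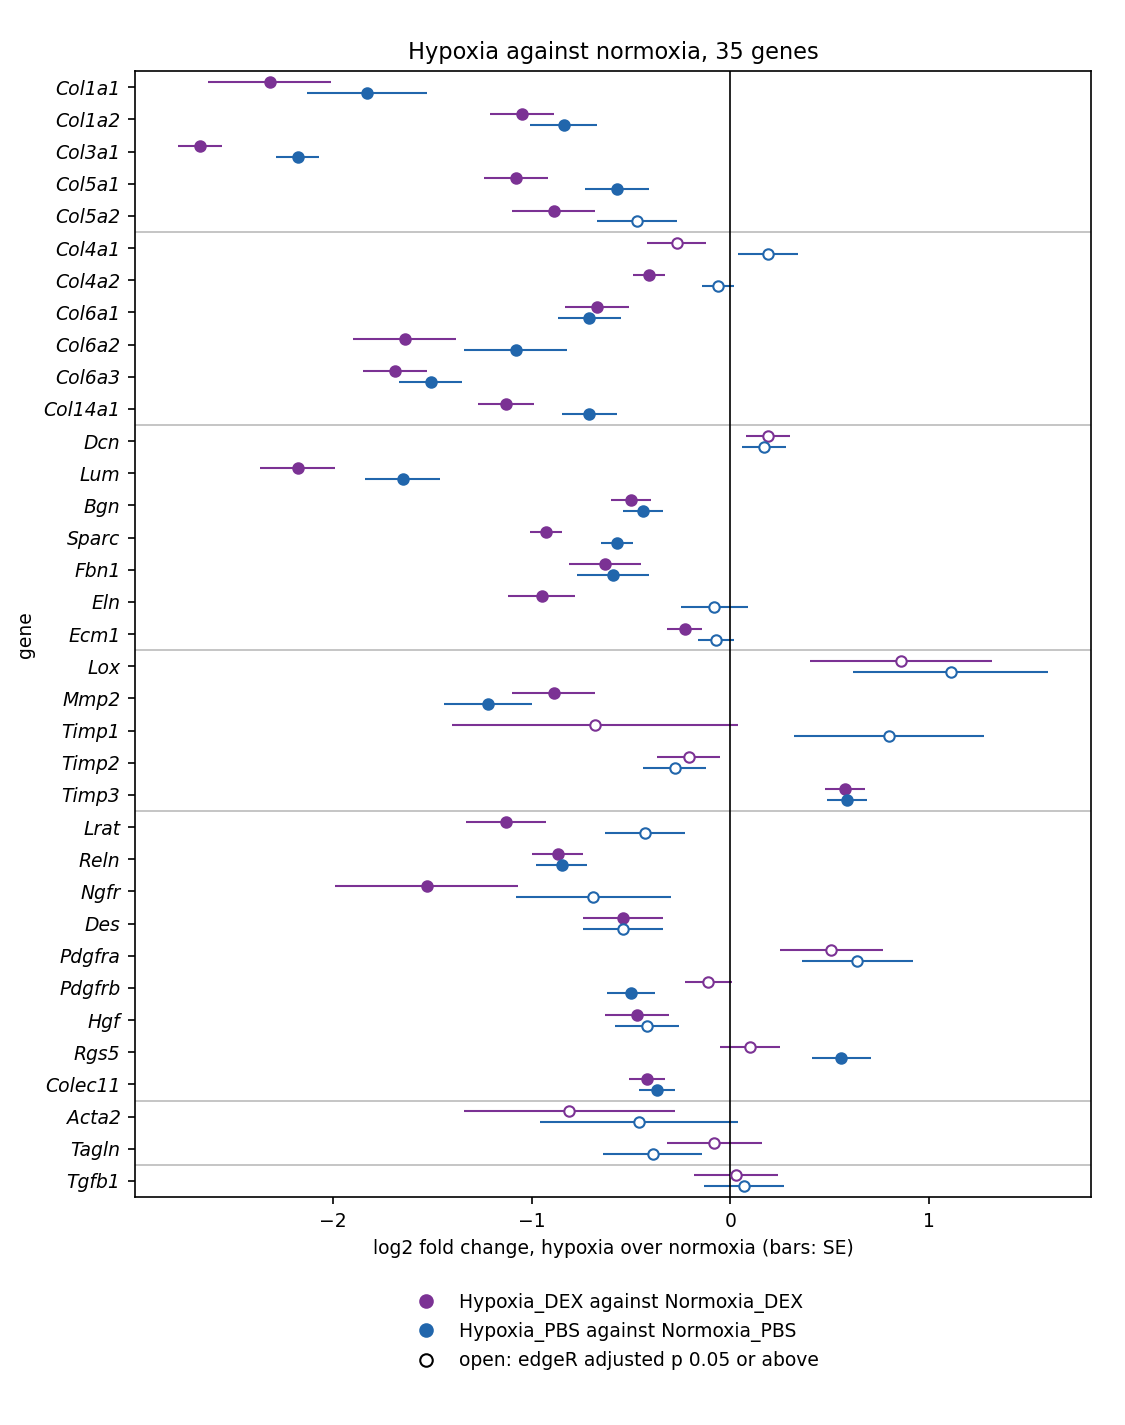
Log2 fold change of hypoxia over normoxia in DEX mice and in PBS mice for each member, with bars of 1 SE and open circles where the adjusted p was 0.05 or more. Col3a1 is the lowest point in both comparisons, at -2.67 in DEX mice and -2.18 in PBS mice.

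The fibrillar collagens form the tensile fibres of connective tissue. In PBS mice 4 of the 5 were called lower in hypoxia, with a median log2 fold change of -0.84 over the 5, and in DEX mice all 5 were called lower, with a median of -1.08. Col3a1 (ENSMUSG00000026043, chr1:45311538-45349706), the chain of type III collagen, had 5.68, 5.77 and 5.09 CPM in Hypoxia_DEX, 6.31, 7.81 and 6.38 CPM in Hypoxia_PBS, 38.2, 31.7 and 34.9 CPM in Normoxia_DEX and 33.6, 28.2 and 30.7 CPM in Normoxia_PBS. Every hypoxia library lay below every normoxia library, and the highest hypoxia value was well under the lowest normoxia value. Col3a1 fell in hypoxia, with a log2 fold change of -2.18 ± 0.11 (SE) in PBS mice (adjusted p = 1.04e-07) and -2.67 ± 0.11 in DEX mice (adjusted p = 2.44e-08). The change kept its size in all 19 alternative settings in PBS mice, from -2.29 to -2.11. Col1a1 (chr11:94936224-94953042), one of the paired chains of type I collagen, had 1.42, 1.49 and 0.473 CPM in Hypoxia_DEX, 1.52, 1.9 and 1.07 CPM in Hypoxia_PBS, 6.35, 4.43 and 5.47 CPM in Normoxia_DEX and 5.04, 4.74 and 6.26 CPM in Normoxia_PBS. Hypoxia and normoxia libraries were again apart, with the lowest value in Hypoxia_DEX-3, which held 9 Col1a1 reads. Col1a1 changed in hypoxia by -1.83 ± 0.30 in PBS mice (adjusted p = 0.000476) and -2.32 ± 0.31 in DEX mice (adjusted p = 7.8e-05).

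Col1a2 (chr6:4504814-4541544), the partner chain of type I collagen, had 8.64, 6.47 and 8.82 CPM in Hypoxia_DEX, 6.02, 8.1 and 5.5 CPM in Hypoxia_PBS, 16.5, 17.6 and 15.9 CPM in Normoxia_DEX and 10.7, 10.3 and 14.1 CPM in Normoxia_PBS. Normoxia_DEX libraries were the highest, and all normoxia libraries lay above all hypoxia libraries. The log2 fold change was -0.84 ± 0.17 in PBS mice (adjusted p = 0.00177) and -1.05 ± 0.16 in DEX mice (adjusted p = 0.000197). Col5a1 (chr2:27886425-28039514) and Col5a2 (chr1:45374321-45503282) encode chains of type V collagen, which sets the diameter of collagen fibrils. Col5a1 had 6.21, 5.42 and 4.94 CPM in Hypoxia_DEX, 6.02, 9.13 and 5.77 CPM in Hypoxia_PBS, 12.8, 11.3 and 10.9 CPM in Normoxia_DEX and 10.6, 9.99 and 10.2 CPM in Normoxia_PBS. Hypoxia_PBS-2 came nearest to the normoxia libraries. The log2 fold change of Col5a1 was -0.57 ± 0.16 in PBS mice (adjusted p = 0.0143), which was lost without Hypoxia_PBS-3 (-0.45, adjusted p = 0.0652), and -1.08 ± 0.16 in DEX mice (adjusted p = 0.000169). Col5a2 had 3.2, 2.1 and 2.68 CPM in Hypoxia_DEX, 3.27, 4.75 and 4.03 CPM in Hypoxia_PBS, 5.1, 4.19 and 5.84 CPM in Normoxia_DEX and 4.81, 5.25 and 6.59 CPM in Normoxia_PBS. Its groups were apart in both oxygen comparisons. Col5a2 was called in DEX mice, at -0.89 ± 0.21 (adjusted p = 0.00364), and had -0.47 ± 0.20 in PBS mice (adjusted p = 0.0811), where it was called only without Hypoxia_PBS-2 (adjusted p = 0.0463).

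Among the 6 network and filament collagens, the type VI chains and Col14a1 were called lower in both oxygen comparisons, while the type IV chains of the basement membrane were not called in PBS mice. Type VI collagen forms beaded filaments around cells, and its chains are assembled together. Col6a3 (chr1:90765923-90843971) had 4.85, 4.37 and 4.46 CPM in Hypoxia_DEX, 3.97, 4.38 and 3.42 CPM in Hypoxia_PBS, 15.6, 12.8 and 16 CPM in Normoxia_DEX and 12.6, 8.72 and 12.4 CPM in Normoxia_PBS. The hypoxia libraries were closely grouped and far under the normoxia libraries. Col6a3 fell, with a log2 fold change of -1.51 ± 0.16 in PBS mice (adjusted p = 2.03e-05) and -1.69 ± 0.16 in DEX mice (adjusted p = 4.84e-06). Col6a2 (chr10:76595762-76623630) had 2.43, 1.05 and 1.79 CPM in Hypoxia_DEX, 1.7, 2.99 and 1.75 CPM in Hypoxia_PBS, 5.72, 4.97 and 6.28 CPM in Normoxia_DEX and 4.58, 3.77 and 5.21 CPM in Normoxia_PBS. Hypoxia and normoxia libraries did not overlap, although the values are low. Col6a2 changed in hypoxia by -1.08 ± 0.26 in PBS mice (adjusted p = 0.00653) and -1.64 ± 0.26 in DEX mice (adjusted p = 0.000288). Col6a1 (chr10:76708792-76726168), the neighbour of Col6a2, had 6.1, 6.03 and 7.19 CPM in Hypoxia_DEX, 6.02, 5.84 and 6.11 CPM in Hypoxia_PBS, 10, 10.9 and 9.95 CPM in Normoxia_DEX and 11.7, 7.24 and 10.5 CPM in Normoxia_PBS. Normoxia_PBS-2 was the normoxia library nearest to hypoxia. Col6a1 changed by -0.71 ± 0.16 in PBS mice (adjusted p = 0.00401) and by -0.67 ± 0.16 in DEX mice (adjusted p = 0.00384).

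Col14a1 (chr15:55307750-55520803), a collagen that binds to the surface of fibrils, had 40.1, 45.7 and 42.4 CPM in Hypoxia_DEX, 39, 56.7 and 42 CPM in Hypoxia_PBS, 84, 103 and 94.2 CPM in Normoxia_DEX and 72, 66.2 and 87 CPM in Normoxia_PBS. Hypoxia_PBS-2 was the highest hypoxia library, still under every normoxia library. Its log2 fold change was -0.71 ± 0.14 in PBS mice (adjusted p = 0.00185) and -1.13 ± 0.14 in DEX mice (adjusted p = 5.07e-05). The type IV chains, which form the basement membrane network, gave another picture. Col4a1 (chr8:11198423-11312826) had 64.7, 98.2 and 66.9 CPM in Hypoxia_DEX, 58.6, 70 and 78.6 CPM in Hypoxia_PBS, 90.2, 92.6 and 93.4 CPM in Normoxia_DEX and 62.9, 54 and 64.9 CPM in Normoxia_PBS. Hypoxia_DEX-2 stood above the other Hypoxia_DEX libraries, and the groups overlapped in both oxygen comparisons. Col4a1 had a log2 fold change of 0.19 ± 0.15 in PBS mice (adjusted p = 0.354), where it was called higher with both Hypoxia_PBS-1 and Hypoxia_DEX-2 left out (0.28, adjusted p = 0.0218). In DEX mice it had -0.27 ± 0.15 (adjusted p = 0.169). There it was called lower without Hypoxia_DEX-2, left out alone or together with Hypoxia_PBS-1 (lowest adjusted p over the settings = 0.00082). Col4a2 ranged from 34.4 to 37.5 CPM in Hypoxia_DEX, 28.6 to 33.8 in Hypoxia_PBS, 44.5 to 51.5 in Normoxia_DEX and 30.9 to 34.7 in Normoxia_PBS. It was called lower in hypoxia in DEX mice, at -0.41 ± 0.08 (adjusted p = 0.00126), and had -0.06 ± 0.08 in PBS mice (adjusted p = 0.593).

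Of the 7 proteoglycans, glycoproteins and elastic fibre genes, 4 were called lower in hypoxia in PBS mice and 6 in DEX mice, and Dcn was called in neither. Lum (chr10:97565128-97572703) encodes lumican, a keratan sulphate proteoglycan that spaces collagen fibrils. Lum had 2.49, 1.92 and 2.89 CPM in Hypoxia_DEX, 2.86, 3.36 and 2.82 CPM in Hypoxia_PBS, 11.3, 12.4 and 10.1 CPM in Normoxia_DEX and 9.1, 7.49 and 11.9 CPM in Normoxia_PBS. The hypoxia libraries were all under 3.5 CPM and the normoxia libraries all above 7 CPM. Its log2 fold change was -1.65 ± 0.19 in PBS mice (adjusted p = 3.35e-05) and -2.18 ± 0.19 in DEX mice (adjusted p = 3.01e-06). Dcn, its neighbour and fellow member of the small leucine-rich family, ranged from 205 to 216 CPM in Hypoxia_DEX, 172 to 191 in Hypoxia_PBS, 181 to 196 in Normoxia_DEX and 138 to 194 in Normoxia_PBS. Dcn changed by 0.17 ± 0.11 in PBS mice (adjusted p = 0.216) and by 0.19 ± 0.11 in DEX mice (adjusted p = 0.171). Without Normoxia_PBS-3 it was called higher in both, and in DEX mice also when only the compared groups were fitted (lowest adjusted p over the settings = 0.00684 and 0.0277).

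Sparc (chr11:55394500-55423183), a collagen-binding matricellular protein, had 37.5, 34.3 and 37 CPM in Hypoxia_DEX, 36.2, 42.5 and 37 CPM in Hypoxia_PBS, 62.9, 71 and 73.2 CPM in Normoxia_DEX and 57.7, 56.3 and 58.1 CPM in Normoxia_PBS. Its hypoxia libraries lay below its normoxia libraries at both treatments, with little spread within a group. Sparc fell, with a log2 fold change of -0.57 ± 0.08 in PBS mice (adjusted p = 0.00014) and -0.93 ± 0.08 in DEX mice (adjusted p = 2.43e-06). Bgn (chrX:73483602-73495933), the proteoglycan biglycan, had 83.8, 77.9 and 87.2 CPM in Hypoxia_DEX, 79.6, 81.8 and 66.3 CPM in Hypoxia_PBS, 110, 126 and 117 CPM in Normoxia_DEX and 109, 87.7 and 112 CPM in Normoxia_PBS. Every hypoxia library lay below every normoxia library, with Normoxia_PBS-2 the nearest. Its log2 fold change was -0.44 ± 0.10 in PBS mice (adjusted p = 0.00544) and -0.50 ± 0.10 in DEX mice (adjusted p = 0.00168).

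Fbn1 (chr2:125300594-125507993) encodes fibrillin-1, the backbone of microfibrils, and Eln (chr5:134702593-134747323) the elastin that is laid on them. Fbn1 had 4.56, 4.46 and 3.83 CPM in Hypoxia_DEX, 3.27, 3.5 and 5.1 CPM in Hypoxia_PBS, 5.72, 7.05 and 7.09 CPM in Normoxia_DEX and 6.84, 5.35 and 5.67 CPM in Normoxia_PBS. Hypoxia_PBS-3 came close to Normoxia_PBS-2. Fbn1 had a log2 fold change of -0.59 ± 0.18 in PBS mice (adjusted p = 0.0227) and -0.63 ± 0.18 in DEX mice (adjusted p = 0.0114). The first call was lost without Hypoxia_PBS-1 (adjusted p = 0.0755), Hypoxia_PBS-2 (adjusted p = 0.0604) or Normoxia_PBS-1 (adjusted p = 0.0909). It was also lost when only the compared groups were fitted, and with both Hypoxia_PBS-1 and Hypoxia_DEX-2 left out (-0.47, adjusted p = 0.0794). The second call was lost without Hypoxia_DEX-3 (adjusted p = 0.0609). Eln had 2.13, 1.66 and 2.42 CPM in Hypoxia_DEX, 3.16, 3.36 and 2.95 CPM in Hypoxia_PBS, 4.02, 3.77 and 4.48 CPM in Normoxia_DEX and 3.71, 2.91 and 3.43 CPM in Normoxia_PBS. The Hypoxia_DEX libraries were the low ones, and Hypoxia_PBS overlapped Normoxia_PBS. Eln was called lower in DEX mice, at -0.95 ± 0.17 (adjusted p = 0.000732), and had -0.08 ± 0.17 in PBS mice (adjusted p = 0.741). Ecm1 ranged from 101 to 129 CPM in the PBS groups, 121 to 128 in Hypoxia_DEX and 139 to 152 in Normoxia_DEX. It was called lower in hypoxia in DEX mice by a small margin, at -0.23 ± 0.09 (adjusted p = 0.0461), a call lost in 15 of the 19 alternative settings, both of those above among them (adjusted p = 0.124 with the pair added together and 0.0965 without Hypoxia_DEX-2 and Hypoxia_PBS-1), and had -0.07 ± 0.09 in PBS mice (adjusted p = 0.539).

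The 5 genes of cross-linking and turnover did not share a direction. Timp3 (chr10:86300372-86349506) encodes the TIMP that is bound to the matrix. Timp3 had 66.5, 59.3 and 64.2 CPM in Hypoxia_DEX, 49.5, 41.9 and 36.9 CPM in Hypoxia_PBS, 41.1, 46.4 and 39.2 CPM in Normoxia_DEX and 29.7, 26.4 and 29.2 CPM in Normoxia_PBS. Hypoxia_DEX was the highest group, Normoxia_PBS the lowest, and the groups were apart in all 4 comparisons. Timp3 rose in hypoxia by 0.59 ± 0.10 on the log2 scale in PBS mice (adjusted p = 0.000779) and by 0.58 ± 0.10 in DEX mice (adjusted p = 0.000524). The gene lies inside Syn3 on the opposite strand, which shares 21.3% of its exon bases but had 156 reads over the 12 libraries, against 8944 for Timp3. Mmp2 (chr8:92827291-92853420), a protease that cleaves denatured collagen and type IV collagen, had 1.3, 1.22 and 1.52 CPM in Hypoxia_DEX, 1.46, 1.17 and 0.94 CPM in Hypoxia_PBS, 2.32, 2.78 and 2.49 CPM in Normoxia_DEX and 3.07, 2.29 and 3.1 CPM in Normoxia_PBS. Every hypoxia library was below every normoxia library. Its log2 fold change was -1.22 ± 0.22 in PBS mice (adjusted p = 0.000891) and -0.89 ± 0.21 in DEX mice (adjusted p = 0.00458).

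Timp2, which inhibits and also helps to activate Mmp2, ranged from 9.87 to 16.9 CPM over the 12 libraries. It had log2 fold changes of -0.28 ± 0.16 in PBS mice (adjusted p = 0.199) and -0.21 ± 0.16 in DEX mice (adjusted p = 0.309), and was called in PBS mice only without Normoxia_PBS-2 (adjusted p = 0.0485). Lox, the lysyl oxidase that cross-links collagen and elastin, had at most 22 reads in a library. Lox had a log2 fold change of 1.11 ± 0.49 in PBS mice (adjusted p = 0.0959) and 0.86 ± 0.46 in DEX mice (adjusted p = 0.148), with overlapping groups. In PBS mice it was called higher without Hypoxia_PBS-1, left out alone or together with Hypoxia_DEX-2, at an adjusted p down to 0.0357 over the settings.

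**Figure D3:**
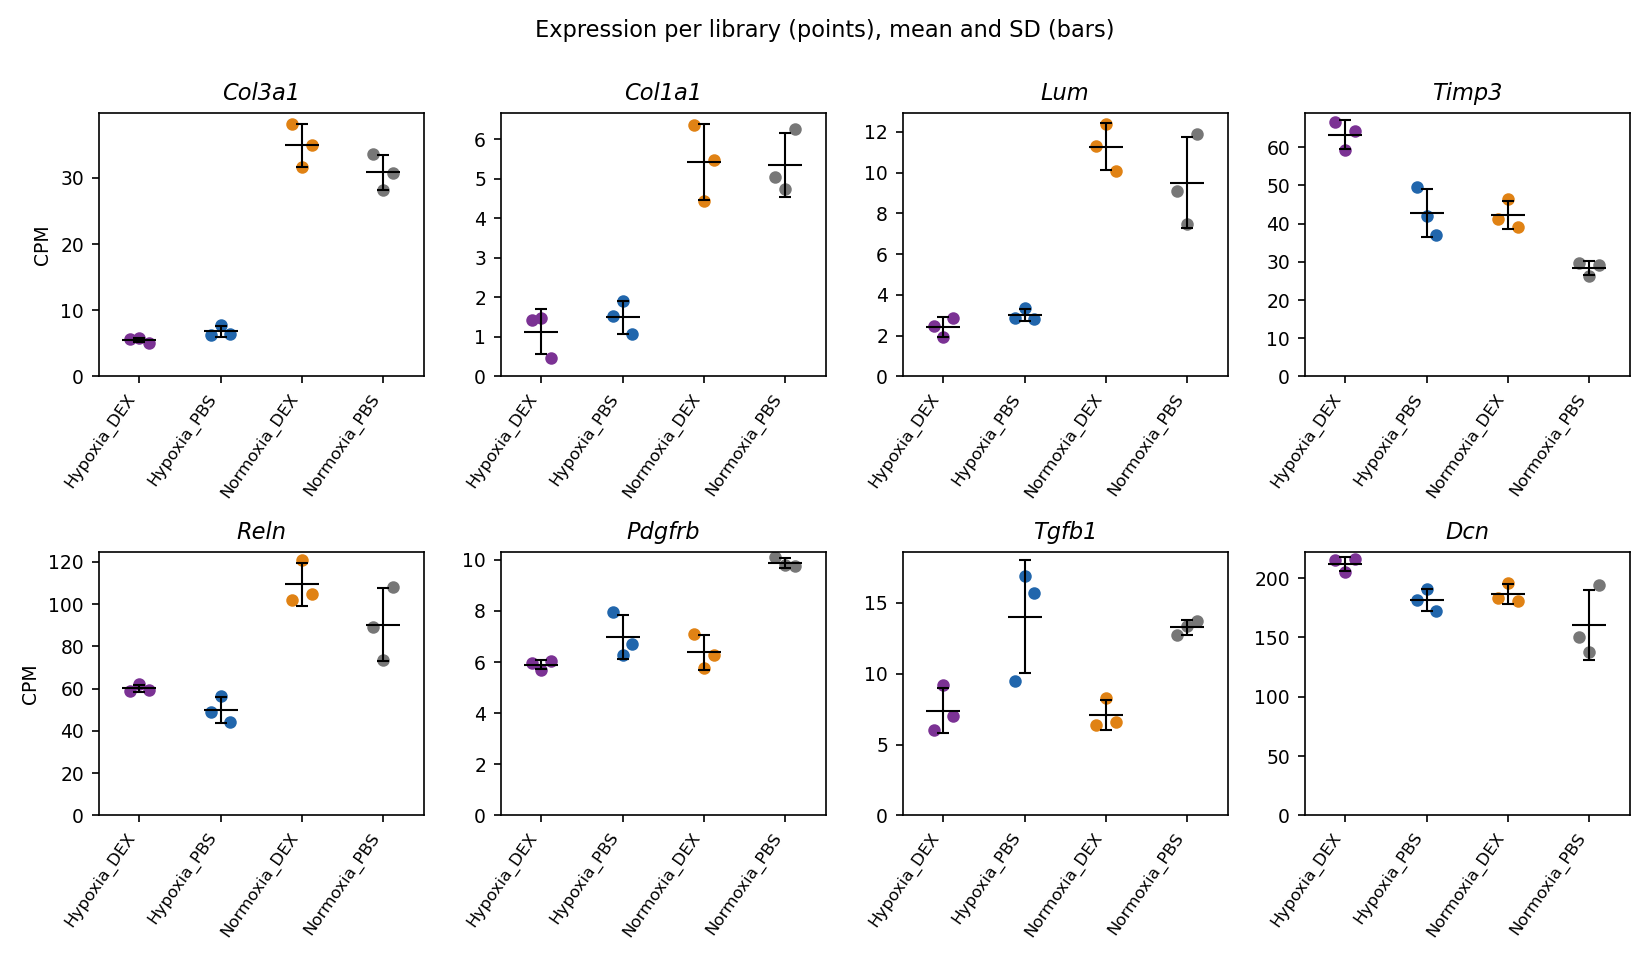
CPM per library, with Hypoxia_DEX, Hypoxia_PBS, Normoxia_DEX and Normoxia_PBS from left to right, for 8 members. Col3a1, Col1a1, Lum and Reln are lower in the hypoxia groups, Timp3 is higher in both hypoxia groups and in both DEX groups, Tgfb1 is lower in the DEX groups, and Dcn overlaps between Hypoxia_PBS and Normoxia_PBS.

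The 9 identity markers were set beside the 23 matrix genes, and the difference between them was not tested. In PBS mice 3 identity markers (33.3%) were called lower and 1 (11.1%) higher, with a median log2 fold change of -0.43. In DEX mice 6 (66.7%) were called lower, with a median of -0.47. For the 23 matrix genes the counts were 13 (56.5%) lower and 1 (4.35%) higher in PBS mice, with a median of -0.57. In DEX mice they were 17 (73.9%) lower and 1 (4.35%) higher, with a median of -0.89. Of all genes 16.8% were called lower and 18.9% higher in PBS mice, and 22.2% and 20.7% in DEX mice. Reln (chr5:21884454-22344702), a secreted glycoprotein that marks stellate cells among liver cells, had 58.9, 62.2 and 59.3 CPM in Hypoxia_DEX, 48.7, 56.7 and 44.2 CPM in Hypoxia_PBS, 102, 121 and 105 CPM in Normoxia_DEX and 89.4, 73.6 and 108 CPM in Normoxia_PBS. The hypoxia libraries did not overlap the normoxia libraries. Reln fell, with a log2 fold change of -0.85 ± 0.13 in PBS mice (adjusted p = 0.000261) and -0.87 ± 0.13 in DEX mice (adjusted p = 0.000153).

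Lrat (chr3:82892579-82903973) encodes the acyltransferase that makes retinyl esters, the stored form of vitamin A. Lrat had 8.52, 5.16 and 8.51 CPM in Hypoxia_DEX, 10.8, 12 and 6.91 CPM in Hypoxia_PBS, 18.6, 14.4 and 16.5 CPM in Normoxia_DEX and 13.8, 13.6 and 12.7 CPM in Normoxia_PBS. Both hypoxia groups lay below their normoxia groups, with Hypoxia_PBS-2 close to Normoxia_PBS-3. It was called lower in DEX mice, at -1.13 ± 0.20 (adjusted p = 0.000739), and had -0.43 ± 0.20 in PBS mice (adjusted p = 0.113). Pdgfrb (chr18:61045150-61085061), the receptor for PDGF-B on pericytes and stellate cells, had 5.98, 5.68 and 6.04 CPM in Hypoxia_DEX, 7.95, 6.28 and 6.71 CPM in Hypoxia_PBS, 7.09, 5.76 and 6.28 CPM in Normoxia_DEX and 10.1, 9.79 and 9.76 CPM in Normoxia_PBS. Normoxia_PBS was the high group, and Normoxia_DEX overlapped both hypoxia groups. Pdgfrb fell in hypoxia, with a log2 fold change of -0.50 ± 0.12 in PBS mice (adjusted p = 0.00613) and had -0.11 ± 0.12 in DEX mice (adjusted p = 0.542). The related receptor Pdgfra ranged from 5 to 18.3 CPM. Its log2 fold changes were above 0, 0.64 ± 0.28 in PBS mice (adjusted p = 0.0933) and 0.51 ± 0.26 in DEX mice (adjusted p = 0.135). In PBS mice it was called without Hypoxia_PBS-2 and with replicate number as a block (adjusted p down to 0.0239 over the settings). In DEX mice it was called without Hypoxia_DEX-2, left out alone or together with Hypoxia_PBS-1, and with only the compared groups (adjusted p down to 0.0107).

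Ngfr (chr11:95568818-95587735), the low-affinity neurotrophin receptor of stellate cells, had 1.36, 3.32 and 1.47 CPM in Hypoxia_DEX, 2.81, 8.91 and 8.39 CPM in Hypoxia_PBS, 5.61, 4.89 and 6.4 CPM in Normoxia_DEX and 8.23, 10.4 and 13.5 CPM in Normoxia_PBS. Hypoxia_PBS-1 stood below both of its replicates, and Hypoxia_DEX-2 above both of its own. Ngfr was called lower in hypoxia in DEX mice, at -1.53 ± 0.46 (adjusted p = 0.0214), which ended when Normoxia_DEX-3 (adjusted p = 0.0573), Hypoxia_DEX-1 (adjusted p = 0.0848) or Hypoxia_DEX-3 (adjusted p = 0.088) was left out, with the near-identical pair added together (-1.39, adjusted p = 0.0644) and with no filter on low counts (adjusted p = 0.068). In PBS mice it had -0.69 ± 0.39 (adjusted p = 0.19). Rgs5 (chr1:169655501-169695813), a regulator of G protein signalling that marks pericytes, had 65.2, 64.2 and 66.6 CPM in Hypoxia_DEX, 67.2, 96.5 and 58.4 CPM in Hypoxia_PBS, 57.2, 63.6 and 62.3 CPM in Normoxia_DEX and 51.3, 44.4 and 55 CPM in Normoxia_PBS. Hypoxia_PBS-2 was the highest library. Rgs5 was called higher in hypoxia in PBS mice, at 0.56 ± 0.15 (adjusted p = 0.0116), and had 0.10 ± 0.15 in DEX mice (adjusted p = 0.622). The call in PBS mice was lost without Normoxia_PBS-2 (adjusted p = 0.0525) and when only the compared groups were fitted (highest adjusted p over the settings = 0.0737).

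Colec11, Hgf and Des complete the identity markers. Colec11 was called lower in both comparisons, at -0.37 ± 0.09 in PBS mice (adjusted p = 0.0083) and -0.42 ± 0.09 in DEX mice (adjusted p = 0.00279). Hgf, the hepatocyte mitogen that stellate cells secrete, had -0.42 ± 0.16 in PBS mice (adjusted p = 0.0612) and -0.47 ± 0.16 in DEX mice (adjusted p = 0.0289). Des, the intermediate filament desmin, had -0.54 ± 0.20 in PBS mice (adjusted p = 0.0507) and -0.54 ± 0.20 in DEX mice (adjusted p = 0.0462). The calls of Hgf and Des in DEX mice were lost in 5 and 15 of the 19 settings, and in PBS mice each was called in 5 of the 19. The single libraries that ended the Hgf call in DEX mice were Hypoxia_DEX-1 (adjusted p = 0.0544), Hypoxia_DEX-2 (adjusted p = 0.124), Normoxia_DEX-2 (adjusted p = 0.112) and Normoxia_DEX-3 (adjusted p = 0.113), and it also ended with both Hypoxia_PBS-1 and Hypoxia_DEX-2 left out (-0.30, adjusted p = 0.114). The Des call ended with the near-identical pair added together (-0.48, adjusted p = 0.117).

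Neither contractile gene was called in any comparison of the main fit. Acta2 (chr19:34241090-34255590), smooth muscle actin and the usual mark of activated stellate cells, had 0.71, 0.262 and 0.893 CPM in Hypoxia_DEX, 0.818, 1.83 and 0.403 CPM in Hypoxia_PBS, 1.3, 0.995 and 1.24 CPM in Normoxia_DEX and 1.33, 0.714 and 2.18 CPM in Normoxia_PBS. The values overlapped between most groups and rest on 3 to 33 reads per library. Acta2 had a log2 fold change of -0.46 ± 0.50 in PBS mice (adjusted p = 0.502) and -0.81 ± 0.53 in DEX mice (adjusted p = 0.24). Tagln ranged from 2.4 to 4.55 CPM, but 62.4% of its exon bases are shared with the antisense gene Gm48529, which had 646 reads against 676 for Tagln. A further overlap, 5.4% of its exon bases, is with Pcsk7 on the opposite strand, which had 6342 reads. Tagln had -0.39 ± 0.25 in PBS mice (adjusted p = 0.236) and -0.08 ± 0.24 in DEX mice (adjusted p = 0.804). In PBS mice it was called lower only without Normoxia_PBS-2 (adjusted p = 0.0352). Tgfb1 (chr7:25687002-25705077), the ligand, did not pass the test for oxygen. It had 6.04, 9.17 and 6.98 CPM in Hypoxia_DEX, 9.47, 16.9 and 15.7 CPM in Hypoxia_PBS, 6.4, 8.29 and 6.59 CPM in Normoxia_DEX and 12.7, 13.4 and 13.7 CPM in Normoxia_PBS. The DEX groups were the low ones, and hypoxia and normoxia overlapped. The log2 fold change in hypoxia was 0.07 ± 0.20 in PBS mice (adjusted p = 0.796) and 0.03 ± 0.21 in DEX mice (adjusted p = 0.909).

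The fibrillar collagens, 5 of the 23 matrix genes, were also set against the identity markers within each library, with no test. The summed CPM of the 5 fibrillar collagens per 100 CPM of the 9 identity markers was 12.6, 11.1 and 10.9 in Hypoxia_DEX, 12.1, 14 and 13.1 in Hypoxia_PBS, 31.2, 24.4 and 27.5 in Normoxia_DEX, and 27.4, 29 and 26 in Normoxia_PBS. All 6 hypoxia libraries were lower in this ratio than all 6 normoxia libraries. Such sums weigh the most expressed genes most, here Rgs5 and Reln among the markers and, in normoxia, Col3a1 among the collagens. Rgs5 had a mean of 74.1 CPM in Hypoxia_PBS against 50.2 in Normoxia_PBS, and 65.3 in Hypoxia_DEX against 61.1 in Normoxia_DEX. Reln went the other way, at 49.9 against 90.2 and 60.2 against 110. Col3a1 had 6.83 against 30.8 and 5.51 against 34.9. The identity markers themselves summed to between 192 and 203 CPM in Hypoxia_DEX, 173 and 227 in Hypoxia_PBS, 253 and 283 in Normoxia_DEX, and 202 and 261 in Normoxia_PBS. All 23 matrix genes summed to between 728 and 737 CPM in Hypoxia_DEX and 625 and 699 in Hypoxia_PBS. In Normoxia_DEX they summed to between 918 and 973, and in Normoxia_PBS to between 672 and 847, so the PBS groups overlapped. The lower ratio is thus shown for the fibrillar collagens alone, and only against this sum of markers. Of the 23 matrix genes, Dcn, Ecm1, Col4a2, Timp2 and Eln had a mean per kb in Hypoxia_PBS within 1 SD of the Normoxia_PBS mean. Normoxia_PBS-2 was a low library for the members, with 22 of 23 matrix genes and 8 of 9 identity markers under the Normoxia_PBS mean.

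Markers of some other cell types moved with hypoxia too, and their part in these results was not tested. Their counts stand against 16.8% of all genes called lower and 18.9% higher in PBS mice, and 22.2% and 20.7% in DEX mice. All 12 Kupffer cell and macrophage markers were called lower in both oxygen comparisons, and they summed to between 228 and 249 CPM in Hypoxia_DEX, 215 and 264 in Hypoxia_PBS, 570 and 804 in Normoxia_DEX, and 527 and 695 in Normoxia_PBS. Of the 12 endothelial markers, sinusoidal and general, 7 were called lower and 2 higher in PBS mice and 6 lower in DEX mice. They summed to 540 to 555 CPM in Hypoxia_DEX, 482 to 513 in Hypoxia_PBS, 673 to 750 in Normoxia_DEX and 599 to 646 in Normoxia_PBS. Vascular smooth muscle markers summed to between 7.51 and 8.65 CPM in Hypoxia_DEX, 9.76 and 11.4 in Hypoxia_PBS, 13.5 and 15.4 in Normoxia_DEX, and 13.8 and 21.4 in Normoxia_PBS. Of the 5 tested, 2 were called lower in PBS mice and 3 in DEX mice. Portal fibroblast markers, from cells that also make type I and type III collagen, summed to between 14.1 and 18.2 CPM in Hypoxia_DEX, 15.6 and 22.8 in Hypoxia_PBS, 17.9 and 21.2 in Normoxia_DEX, and 16.1 and 22.9 in Normoxia_PBS. These sums overlapped in both oxygen comparisons. Of the 9 tested, 3 were called lower and 1 higher in PBS mice, and 1 lower and 1 higher in DEX mice. None of the markers in these 4 lists was at 0 in all libraries. Of the hepatocyte markers 3 of 10 were called lower and 1 higher in PBS mice, and 5 lower and 1 higher in DEX mice. Of 6 cholangiocyte markers tested, 2 were called lower in PBS mice and 0 in DEX mice. For 7 lymphocyte markers tested these counts were 3 and 1, and no marker of either list was called higher.

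The next question was what DEX changed 2 h after injection at each oxygen level. In normoxia 6 members were called higher, against 9.38% of all genes, all of them matrix genes, and 2 were called lower, Tgfb1 and Pdgfrb, against 7.4%. In hypoxia 1 member was called higher, Timp3, against 6.13% of all genes, and 3 were called lower, Timp1, Ngfr and Tgfb1, against 7.05%. In either direction 16.8% of all genes were called in normoxia and 13.2% in hypoxia. The median log2 fold change of the members was 0.21 in normoxia and -0.05 in hypoxia, against 0.00 and -0.01 over all genes. Timp3 and Tgfb1 were called with DEX at both oxygen levels, where 4% of all genes were called higher at both and 3.39% lower at both.

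**Figure D4:**
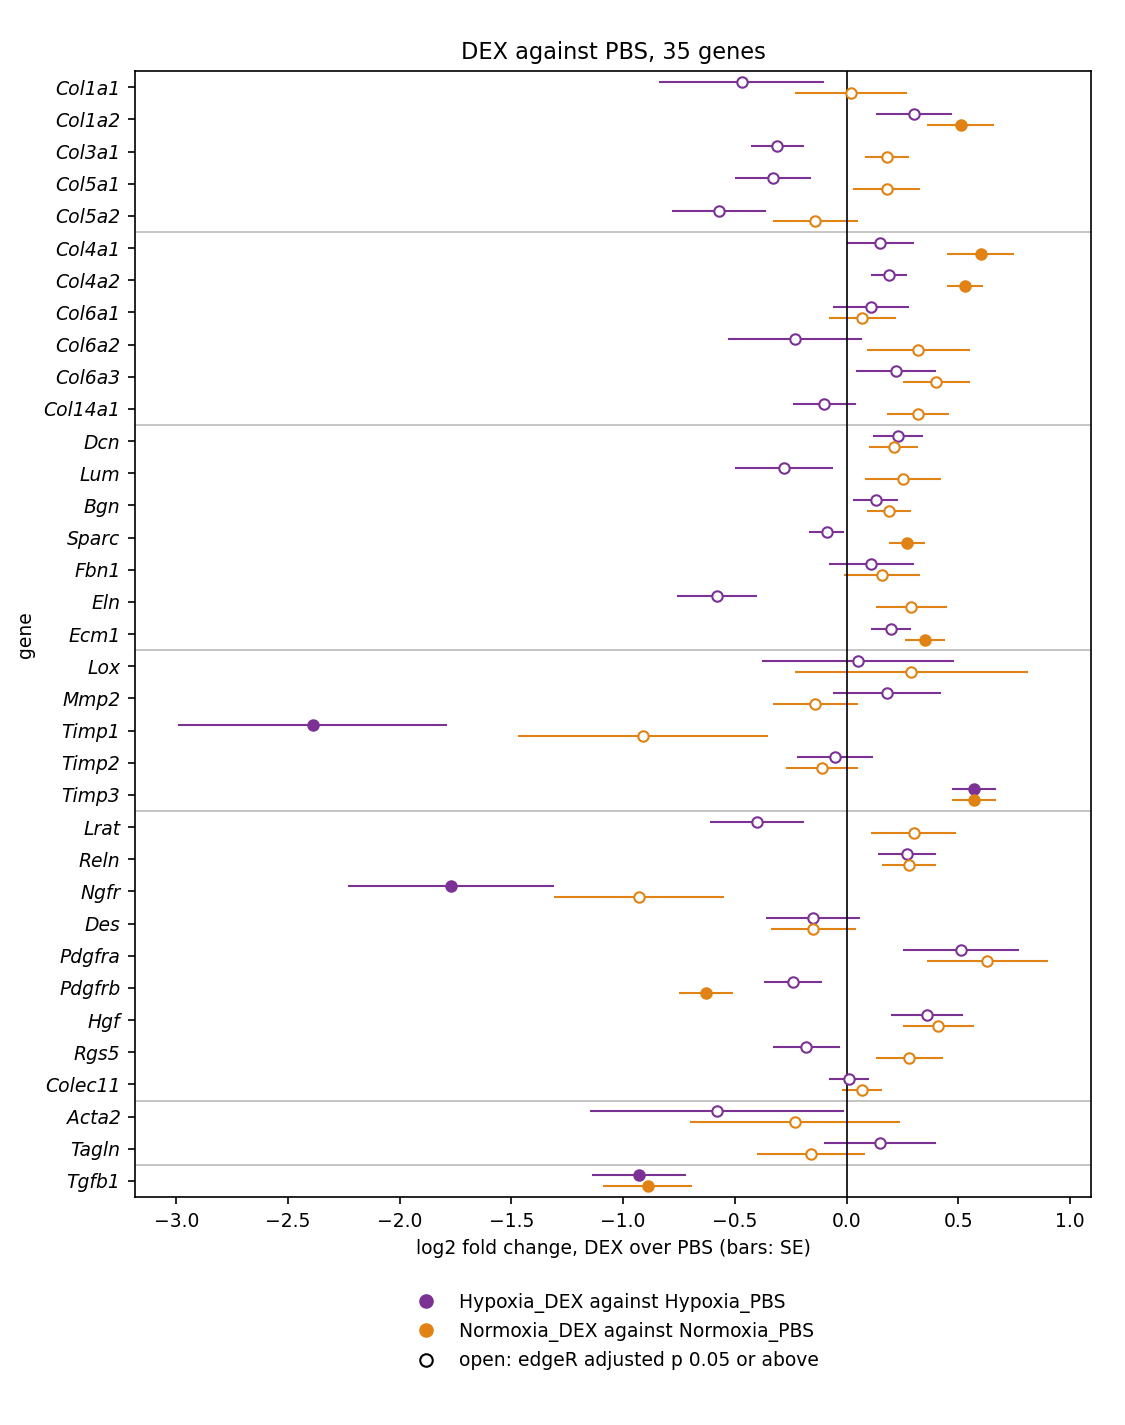
Log2 fold change of DEX over PBS in hypoxia and in normoxia for each member, with bars of 1 SE and open circles where the adjusted p was 0.05 or more. Timp3 is at 0.57 at both oxygen levels and Tgfb1 at -0.93 in hypoxia and -0.89 in normoxia, while most other points are open.

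With the values given above, Timp3 rose with DEX by 0.57 ± 0.10 on the log2 scale in hypoxia (adjusted p = 0.00264) and by 0.57 ± 0.10 in normoxia (adjusted p = 0.00159). Without Hypoxia_DEX-2 and Hypoxia_PBS-1 the change in hypoxia was 0.76. Tgfb1 fell with DEX, with a log2 fold change of -0.93 ± 0.21 in hypoxia (adjusted p = 0.00994) and -0.89 ± 0.20 in normoxia (adjusted p = 0.00779). In hypoxia the DEX and PBS libraries of Tgfb1 were close at 1 point, Hypoxia_DEX-2 against Hypoxia_PBS-1, and did not overlap. Its call there was lost without Hypoxia_DEX-1 (-0.78, adjusted p = 0.0525) and when only these groups were fitted (adjusted p = 0.0672). Without Hypoxia_DEX-2 and Hypoxia_PBS-1 it was -1.29 (adjusted p = 5.35e-05), and with the near-identical pair added together it was -0.85 (adjusted p = 0.0412).

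Pdgfrb was called lower with DEX in normoxia, at -0.63 ± 0.12 (adjusted p = 0.00208), where all 3 Normoxia_DEX libraries were below all Normoxia_PBS libraries. In hypoxia it had -0.24 ± 0.13 (adjusted p = 0.233). Ngfr had -1.77 ± 0.46 with DEX in hypoxia (adjusted p = 0.0301), with Hypoxia_DEX-2 above Hypoxia_PBS-1, so the groups overlapped. The call ended when Hypoxia_PBS-2 (adjusted p = 0.0989), Hypoxia_PBS-3 (adjusted p = 0.109), Hypoxia_DEX-1 (adjusted p = 0.12) or Hypoxia_DEX-3 (adjusted p = 0.126) was left out, and with the near-identical pair added together (adjusted p = 0.0984). Without Hypoxia_DEX-2 and Hypoxia_PBS-1 it was -2.57 (adjusted p = 2.72e-05). In normoxia Ngfr had -0.93 ± 0.38 (adjusted p = 0.135), with the groups apart, and was called when only these groups were fitted (-0.94, adjusted p = 0.00605), without Hypoxia_PBS-1, a library outside that comparison (adjusted p = 0.0134), and with both Hypoxia_PBS-1 and Hypoxia_DEX-2 left out (adjusted p = 0.00121). Pdgfra and Hgf were not called with DEX at either oxygen level, but without Hypoxia_DEX-2 and Hypoxia_PBS-1 both were called higher in hypoxia, Pdgfra at 0.98 (adjusted p = 0.0103) and Hgf at 0.54 (adjusted p = 0.0428), and in normoxia, Pdgfra at 0.63 (adjusted p = 0.0353) and Hgf at 0.40 (adjusted p = 0.0439).

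Timp1, the soluble TIMP that rises in injured liver, had 0.178, 0.0874 and 0.21 CPM in Hypoxia_DEX, 0.409, 1.61 and 0.806 CPM in Hypoxia_PBS, 0.283, 0.373 and 0.124 CPM in Normoxia_DEX and 0.348, 0.561 and 0.659 CPM in Normoxia_PBS. Those levels rest on 3, 1 and 4 reads in Hypoxia_DEX, 7, 22 and 12 in Hypoxia_PBS, 5, 9 and 2 in Normoxia_DEX, and 6, 11 and 10 in Normoxia_PBS. Hypoxia_PBS-2 was the highest library and the Hypoxia_DEX libraries were all near the bottom. Timp1 had a log2 fold change with DEX of -2.39 ± 0.60 in hypoxia (adjusted p = 0.0189) and -0.91 ± 0.56 in normoxia (adjusted p = 0.321). The call in hypoxia was lost without any 1 of the Hypoxia_DEX libraries (adjusted p = 0.0669, 0.0512 and 0.0578) or without Hypoxia_PBS-2 (-1.77, adjusted p = 0.0781).

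The other 5 members called higher with DEX in normoxia were both type IV collagen chains, Col1a2, Ecm1 and Sparc. Col4a2 rose by 0.53 ± 0.08 on the log2 scale in normoxia (adjusted p = 0.000398) and had 0.19 ± 0.08 in hypoxia (adjusted p = 0.16). Col4a1 rose by 0.60 ± 0.15 in normoxia (adjusted p = 0.015) and had 0.15 ± 0.15 in hypoxia (adjusted p = 0.581). For both chains the Normoxia_DEX libraries were above all Normoxia_PBS libraries. Ecm1 had 0.35 ± 0.09 in normoxia (adjusted p = 0.0112), Col1a2 0.51 ± 0.15 (adjusted p = 0.0368) and Sparc 0.27 ± 0.08 (adjusted p = 0.031). Of these calls, that of Col4a2 held in all 19 alternative settings. Without the low library Normoxia_PBS-2 the calls of Col4a1 (adjusted p = 0.0684), Ecm1 (adjusted p = 0.0633), Col1a2 and Sparc were lost, and 4 members in all were called in place of 8. Without Normoxia_DEX-2, 5 were called, and Ecm1 was lost there too (adjusted p = 0.0506). Col1a2 and Sparc were lost in 8 and 7 of the 19 settings, with adjusted p up to 0.153 and 0.133, and Col1a2 was lost with the near-identical hypoxia pair added together (0.50, adjusted p = 0.0549).

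The interaction asks whether the DEX response differed between hypoxia and normoxia, which is also whether the oxygen effect differed between DEX and PBS mice. None of the 35 members was called by edgeR, against 1.32% of all genes (0.325% higher and 0.996% lower), while 8 had an unadjusted p under 0.05 and DESeq2 also called 0, with an adjusted p of NA for 3. The 29 negative and 6 positive differences had a median of -0.21 on the log2 scale, against -0.02 over all genes. The split of signs over all genes was not counted, and that among the members was not tested. Among members with values above, the difference was -0.87 ± 0.24 for Eln (adjusted p = 0.117), -0.49 ± 0.16 for Col3a1 (adjusted p = 0.185), -0.35 ± 0.11 for Sparc (adjusted p = 0.172) and -0.35 ± 0.12 for Col4a2 (adjusted p = 0.196). For Timp3 it was -0.01 ± 0.14 (adjusted p = 0.994) and for Tgfb1 -0.04 ± 0.29 (adjusted p = 0.978). Without Hypoxia_DEX-2 and Hypoxia_PBS-1, 2 members were called, Col4a1 at -0.74 (adjusted p = 0.00558) and Ngfr at -1.63 (adjusted p = 0.0141).

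Other genes of the same pathways were counted on lists. Of 25 tested genes of collagen modification and secretion, 6 (24%) were called higher and 6 (24%) lower in hypoxia in PBS mice, against 18.9% and 16.8% of all genes, and 5 (20%) higher and 11 (44%) lower in DEX mice, against 20.7% and 22.2%. The shares called higher were near those of all genes. Serpinh1, the collagen chaperone HSP47, had 3.2, 3.58 and 3.99 CPM in Hypoxia_DEX, 3.27, 6.57 and 4.77 CPM in Hypoxia_PBS, 12.6, 11.4 and 10.9 CPM in Normoxia_DEX and 11.8, 10.1 and 10.4 CPM in Normoxia_PBS. Every hypoxia library was below every normoxia library. Serpinh1 fell in hypoxia, with a log2 fold change of -1.16 ± 0.19 in PBS mice (adjusted p = 0.000482) and -1.69 ± 0.19 in DEX mice (adjusted p = 2.21e-05). With DEX 6 genes of this list (24%) were called higher and 0 lower in normoxia, against 9.38% and 7.4% of all genes, and 2 (8%) higher and 1 (4%) lower in hypoxia, against 6.13% and 7.05%. Adamts14, a procollagen N-proteinase, had the largest of these changes in normoxia, 1.49 ± 0.18 (adjusted p = 7.28e-05), and 0.71 ± 0.20 in hypoxia (adjusted p = 0.0352), the second call being lost in 8 of the 19 settings, among them without any 1 Hypoxia_DEX library, Hypoxia_PBS-3 or Normoxia_DEX-1, and with the near-identical pair added together (adjusted p up to 0.135).

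Of 5 other cross-linking enzymes 1 (20%) was called lower in hypoxia in PBS mice, near the 16.8% of all genes, and 4 (80%) in DEX mice, against 22.2%. Of 31 other basement membrane and adhesive glycoprotein genes, 3 (9.68%) were called higher and 9 (29%) lower in hypoxia in PBS mice, against 18.9% and 16.8% of all genes, and 3 (9.68%) higher and 14 (45.2%) lower in DEX mice, against 20.7% and 22.2%. Lamb3, a chain of laminin-332, went the other way from the collagens. It had 7.46, 7.95 and 7.98 CPM in Hypoxia_DEX, 12.2, 4.89 and 5.3 CPM in Hypoxia_PBS, 2.66, 2.24 and 2.18 CPM in Normoxia_DEX and 2.14, 1.99 and 2.31 CPM in Normoxia_PBS. The hypoxia libraries were all above the normoxia libraries, with Hypoxia_PBS-1 the highest. Lamb3 rose by 1.82 ± 0.31 on the log2 scale in PBS mice (adjusted p = 0.000674) and by 1.72 ± 0.30 in DEX mice (adjusted p = 0.000577). Of 21 other matrix proteases and inhibitors tested, 2 (9.52%) were called higher and 2 (9.52%) lower in hypoxia in PBS mice, and 3 (14.3%) higher and 6 (28.6%) lower in DEX mice, against the same shares of all genes. With DEX 5 of the 21 (23.8%) were called lower in hypoxia and 3 (14.3%) in normoxia, against 7.05% and 7.4% of all genes, and 0 and 1 were called higher.

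The TGF-beta pathway list held 36 tested genes, of which 9 (25%) were called lower and 2 (5.56%) higher with DEX in hypoxia, against 7.05% and 6.13% of all genes, and 7 (19.4%) lower and 5 (13.9%) higher in normoxia, against 7.4% and 9.38%. In hypoxia against normoxia 10 (27.8%) were called lower and 3 (8.33%) higher in PBS mice, against 16.8% and 18.9%, and 15 (41.7%) lower and 5 (13.9%) higher in DEX mice, against 22.2% and 20.7%. Inhbe, the beta E subunit of activin that hepatocytes make, had 24.4, 30.5 and 28.6 CPM in Hypoxia_DEX, 81.3, 42.4 and 89.1 CPM in Hypoxia_PBS, 2.72, 2.36 and 7.96 CPM in Normoxia_DEX and 81.4, 24.6 and 21.3 CPM in Normoxia_PBS. Normoxia_DEX was the low group, and the DEX libraries were below the PBS libraries at both oxygen levels. Inhbe fell with DEX in normoxia, with a log2 fold change of -3.34 ± 0.69 (adjusted p = 0.0109), a call lost without Normoxia_DEX-2 (adjusted p = 0.0506) and when only these groups were fitted (adjusted p = 0.0727). In hypoxia it had -1.35 ± 0.59 (adjusted p = 0.184). Fst encodes follistatin, which binds and blocks activins. It had 1.18, 1.14 and 1.26 CPM in Hypoxia_DEX, 2.51, 6.94 and 7.12 CPM in Hypoxia_PBS, 0.453, 0.539 and 0.684 CPM in Normoxia_DEX and 1.91, 2.6 and 8.96 CPM in Normoxia_PBS. All DEX libraries were below all PBS libraries of the same oxygen level, and Normoxia_PBS-3 was the highest library. Fst fell with DEX, with a log2 fold change of -2.18 ± 0.63 in hypoxia (adjusted p = 0.0459) and -2.97 ± 0.69 in normoxia (adjusted p = 0.0138). Its call in hypoxia was lost in 10 of the 19 settings, among them without any 1 Hypoxia_DEX or Normoxia_DEX library, Hypoxia_PBS-2 or Hypoxia_PBS-3 (adjusted p up to 0.138), and that in normoxia without Normoxia_DEX-1 (adjusted p = 0.056) or Normoxia_DEX-2 (adjusted p = 0.0619). Bambi, a decoy receptor that dampens TGF-beta signals in stellate cells, had 3.55, 2.27 and 3.36 CPM in Hypoxia_DEX, 1.52, 1.1 and 1.07 CPM in Hypoxia_PBS, 3.8, 4.52 and 7.46 CPM in Normoxia_DEX and 1.85, 1.58 and 0.923 CPM in Normoxia_PBS. All DEX libraries lay above all PBS libraries of the same oxygen level. Bambi rose with DEX by 1.32 ± 0.33 on the log2 scale in hypoxia (adjusted p = 0.0178) and by 1.82 ± 0.30 in normoxia (adjusted p = 0.000725). In hypoxia, leaving out Hypoxia_PBS-2, Hypoxia_PBS-3, Hypoxia_DEX-1 or Hypoxia_DEX-3 ended its call, with an adjusted p of up to 0.0716. Ccn2, the connective tissue growth factor that TGF-beta induces, had 14.2, 9.87 and 12.4 CPM in Hypoxia_DEX, 10.3, 2.99 and 3.69 CPM in Hypoxia_PBS, 14.7, 14.1 and 18.1 CPM in Normoxia_DEX and 3.59, 2.09 and 2.97 CPM in Normoxia_PBS. Hypoxia_PBS-1 was the only PBS library within the range of the DEX libraries. Ccn2 rose with DEX by 2.44 ± 0.40 in normoxia (adjusted p = 0.00206) and had 1.08 ± 0.38 in hypoxia (adjusted p = 0.0957), where it was called without Hypoxia_PBS-1 (lowest adjusted p over the settings = 4.24e-05).

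Of 15 tested vitamin A storage genes, 5 (33.3%) were called lower and 1 (6.67%) higher in hypoxia in PBS mice, against 16.8% and 18.9% of all genes, and 6 (40%) lower and 3 (20%) higher in DEX mice, against 22.2% and 20.7%. With DEX 5 (33.3%) were called lower and 2 (13.3%) higher in hypoxia, against 7.05% and 6.13%, and 3 (20%) lower and 2 (13.3%) higher in normoxia, against 7.4% and 9.38%. Cyp26a1, which breaks down retinoic acid, had 20.3, 19.5 and 19.4 CPM in Hypoxia_DEX, 3.8, 4.45 and 3.76 CPM in Hypoxia_PBS, 52.4, 29.4 and 29 CPM in Normoxia_DEX and 9.16, 7.39 and 6.46 CPM in Normoxia_PBS. Each DEX library was above each PBS library of the same oxygen level. It rose with DEX by 2.30 ± 0.24 on the log2 scale in hypoxia (adjusted p = 0.000121) and by 2.26 ± 0.22 in normoxia (adjusted p = 2.45e-05). It also fell in hypoxia, with a log2 fold change of -0.94 ± 0.25 in PBS mice (adjusted p = 0.0133) and -0.90 ± 0.20 in DEX mice (adjusted p = 0.00412), and in PBS mice that call was lost without Hypoxia_PBS-1 (adjusted p = 0.0681), without Normoxia_PBS-1 (adjusted p = 0.0515) and with both Hypoxia_PBS-1 and Hypoxia_DEX-2 left out (adjusted p = 0.103). Of 14 further stellate markers, 4 (28.6%) were called lower and 1 (7.14%) higher in hypoxia in PBS mice and 5 (35.7%) lower in DEX mice, against 16.8%, 18.9% and 22.2% of all genes. With DEX 4 (28.6%) of them were called higher in hypoxia and 5 (35.7%) in normoxia, against 6.13% and 9.38%, and 0 lower. Of 9 PDGF and HGF partners, 2 (22.2%) were called in each direction in hypoxia in PBS mice, near the 18.9% and 16.8% of all genes, and 1 (11.1%) higher and 2 (22.2%) lower in DEX mice, against 20.7% and 22.2%. With DEX 0 of these were called higher, and 2 (22.2%) were called lower in hypoxia and 1 (11.1%) in normoxia, against 7.05% and 7.4%.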

How the data were processed

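Liver mRNA of 12 libraries was analysed from the authors' deposited table of raw read counts per gene, which held whole numbers with no normalization. Per the submitters' processing notes, Trimmomatic, HISAT2 2.0.4, SAMtools, featureCounts, DESeq2 and the mm10 build are named without their roles. The annotation and strandedness of the counting were not given in the sources used here. Libraries came, per the labels' protocols, from a stranded Illumina mRNA kit on column-isolated RNA. Per the labels, the treatment text names both oxygen arms as hypoxic, and the sample titles, which name normoxia, were followed.

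The model was edgeR 4.0.16's quasi-likelihood fit in R 4.3.3 (filterByExpr, TMM, robust glmQLFit, glmQLFTest) on all 12 libraries, which gave every group its own mean and left 8 residual degrees of freedom. Benjamini-Hochberg adjustment ran over 13861 genes, with 0.05 as the threshold. CPM used TMM-scaled library sizes, and the SE of a log2 fold change is its size divided by the root of the F statistic. Exon lengths and positions are from GENCODE M21, and promoters from RefSeq (GRCm38.p6). Of 54838 identifiers, 54723 had a symbol. Depth was 12464687 to 24715995 counts per library. On simulated counts (13608 genes, hypoxia against normoxia in PBS mice) 31.8%, 76.9% and 89.1% of genes changed 1.5-, 2- and 4-fold were recovered, with 5 false calls of 133. The simulation changed only 200 genes, while 35.7% of genes were called in the data, so these shares do not give the sensitivity there.

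Members, lists and tests were chosen with earlier results of these data known. Per-library CPM are given for up to 5 called members per role group, by size of the largest called change, and for Lrat, Pdgfrb, Acta2 and Tgfb1, and up to 3 genes per other list were eligible to be named. Nothing beyond the design text says how replicates were made, so p-values measure the spread between these libraries. The fits were repeated with the compared groups alone, with replicate number as a block, without the filter on low counts, with RLE scaling, by DESeq2 1.42.0, with each library left out, with Hypoxia_DEX-1 and Hypoxia_DEX-3 added together, and without Hypoxia_DEX-2 and Hypoxia_PBS-1. Figures were drawn with matplotlib 3.10.9.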

Additional observations from a re-analysis of the deposited data

Results flagged for a closer look

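Lyve1, Vwf and Kdr are 3 of the 12 endothelial markers counted beside the members. By the interaction term of edgeR's fit over all genes, which called 1.32% of them, these 3 had a DEX response that differed between hypoxia and normoxia. None of the 35 members did. Lyve1, a hyaluronan receptor, had 54.7, 51.6 and 50.8 CPM in Hypoxia_DEX, 20.8, 24.2 and 27.1 CPM in Hypoxia_PBS, 52.1, 65.9 and 50.2 CPM in Normoxia_DEX and 11.1, 9.79 and 11.1 CPM in Normoxia_PBS. DEX libraries were above PBS libraries at both oxygen levels, with a log2 fold change of 1.13 in hypoxia and 2.40 in normoxia, and the difference was -1.27 ± 0.16 (SE, adjusted p = 0.00202). Vwf, von Willebrand factor, had 15.3, 17.6 and 17 CPM in Hypoxia_DEX, 18.4, 25.6 and 20.3 CPM in Hypoxia_PBS, 13.9, 11.8 and 13.6 CPM in Normoxia_DEX and 9.97, 8.1 and 10.3 CPM in Normoxia_PBS. Its difference between the DEX responses was -0.84 ± 0.19 (adjusted p = 0.0461), lost in 14 of 18 alternatives (adjusted p from 0.00563 to 0.156). Kdr, a receptor of vascular endothelial growth factor, had 30.6, 32.8 and 32.8 CPM in Hypoxia_DEX, 52.2, 42.1 and 42.9 CPM in Hypoxia_PBS, 34.2, 40.1 and 35.4 CPM in Normoxia_DEX and 84.7, 78.1 and 73.6 CPM in Normoxia_PBS. DEX libraries were below PBS libraries at both oxygen levels, and the difference was 0.59 ± 0.13 (adjusted p = 0.047), lost in 11 of 18 alternatives (adjusted p from 0.00497 to 0.115).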

How the results depend on the processing

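Of the members called in the main fit, 15 of 18 kept their call in all 19 alternatives for hypoxia against normoxia in PBS mice, 19 of 24 in DEX mice, 4 of 8 for DEX in normoxia and 1 of 4, Timp3, for DEX in hypoxia. No member or named gene changed sign while called. With 1 library left out at a time, 17 to 20 members were called for hypoxia in PBS mice, 20 to 25 for hypoxia in DEX mice, 4 to 9 for DEX in normoxia, 1 to 5 for DEX in hypoxia and 0 to 0 for the interaction. When only the compared groups were fitted, 1 member was called for DEX in hypoxia, Timp3. Without Hypoxia_DEX-2 and Hypoxia_PBS-1, 2 members were called for the interaction. In that setting the Hypoxia_DEX group was the near-identical pair alone. Over all genes, DEX in hypoxia gave 1827 calls, 1180 with only the compared groups, 1160 with Hypoxia_DEX-1 and Hypoxia_DEX-3 summed, and 1072 to 2466 with 1 library left out. The interaction gave 183, 371 by DESeq2, 70 with that pair summed, 475 without Hypoxia_DEX-2 and Hypoxia_PBS-1, and 63 to 306 with 1 library left out. The cause was not tested.

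Same-numbered libraries correlated at -0.151 to 0.39 (median 0.014) in their deviations from the group means, over 0.1 in 4 of 18 pairs, so the numbers were not treated as pairs. With the replicate number as a block, 20, 9, 4, 22 and 0 members were called for hypoxia in PBS mice, DEX in normoxia, DEX in hypoxia, hypoxia in DEX mice and the interaction, against 18, 8, 4, 24 and 0 without it. Counts under about 30 reads per library, as for Timp1, Lox and Acta2, limit what can be called. The called falls of Col1a1 and Mmp2 also rest on such counts in every hypoxia library, and those of some other members in part of them. Col1a1 had 24, 17 and 9 reads in Hypoxia_DEX and 26, 26 and 16 in Hypoxia_PBS. Mmp2 had 22, 14 and 29 reads in Hypoxia_DEX and 25, 16 and 14 in Hypoxia_PBS. Among the others, Col6a2 had 41, 12 and 34 reads in Hypoxia_DEX and 29, 41 and 26 in Hypoxia_PBS. Ngfr had 23, 38 and 28 in Hypoxia_DEX, and in Hypoxia_DEX-2 Eln had 19 and Lum 22.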

Other observations

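Pth1r, the parathyroid hormone receptor that stellate cells carry, had 4.2, 2.71 and 4.46 CPM in Hypoxia_DEX, 6.08, 3.65 and 2.69 CPM in Hypoxia_PBS, 8.11, 8.37 and 8.95 CPM in Normoxia_DEX and 9.1, 8.05 and 8.57 CPM in Normoxia_PBS. Every hypoxia library was below every normoxia library. Its log2 fold change in hypoxia was -1.13 ± 0.23 in DEX mice (adjusted p = 0.00177) and -1.03 ± 0.23 in PBS mice (adjusted p = 0.00418), called in all 19 alternatives of each comparison. These were the lowest values among the 14 further stellate markers tested. The median of the 14 was -0.38 in DEX mice, with 4 above 0, and -0.19 in PBS mice, with 6 above 0 and 1 called higher. With DEX it had -0.11 ± 0.25 in hypoxia (adjusted p = 0.822) and -0.02 ± 0.22 in normoxia (adjusted p = 0.978).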
